A study of Mus musculus with 12 samples.

Results

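The genes described here are 10 mouse genes for ligands with which a tumour cell meets T cells, macrophages and natural killer (NK) cells: Cd274, Pdcd1lg2, Cd276, Cd80, Cd47, Lgals9, Pvr, Nectin2, Raet1e and Ulbp1. They were picked by symbol, with earlier results of these data known, and are 10 of the 55421 genes in the table. The RNA came from MOC2, a mouse oral squamous cell carcinoma line, grown in culture. The study asked what extracellular vesicles (EVs), membrane particles shed by cells, add to the signals of senescent tumour cells. Cells titled MOC2-25 were EV-proficient. Cells titled MOC2-27 were EV-deficient, after a genetic block of vesicle release whose target gene the labels do not name. Each of these was sampled as a DMSO control and after 600 nM paclitaxel, a microtubule-stabilising drug, for 48 h, with 3 libraries in each of the 4 groups. All groups were grown in the same hormone- and growth-factor-supplemented medium. Each EV label stood for 1 derivative of the line, so vesicle status and derivative cannot be told apart. No source used here says that the 3 libraries of a group were separate cultures, so p-values measure the spread between libraries, which may be technical.

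Checkpoint ligands are surface or secreted proteins that restrain or license immune cells when they bind a receptor. Cd274 (PD-L1) and Pdcd1lg2 (PD-L2) bind PD-1 on T cells. Cd80 binds CD28 and CTLA-4, and Cd276 (B7-H3) belongs to the same B7 family. Cd47 engages SIRPα on macrophages and restrains phagocytosis, and Lgals9 encodes galectin-9, a lectin that binds TIM-3. Pvr (CD155) and Nectin2 (CD112) are adhesion molecules seen by the activating receptor CD226 and the inhibitory receptor TIGIT. Raet1e and Ulbp1 encode ligands of NKG2D, the activating NK receptor, which stressed and transformed cells display. Interferon signalling through JAK and STAT proteins is a well-known inducer of PD-L1.

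The EV labels were checked before the ligands were read. The first principal component of log2 CPM (counts scaled to library size), with 54.1% of the variance, separated paclitaxel from DMSO libraries. On the second, with 16.4%, EV-proficient DMSO libraries (27.2 to 36.5) shared a side with EV-deficient paclitaxel libraries (34.2 to 43.5), and the other 6 libraries lay on the opposite side. A row that the authors added to the table under the name dngfr divided the libraries in the same way. Its level went from 8.99 ± 3.22 CPM with DMSO to 3.24 ± 0.68 CPM with paclitaxel in EV-proficient cells and went from 2.14 ± 0.35 to 10.9 ± 1.42 CPM in EV-deficient cells (SD, n = 3 each). Under the EV labels as given, the second component and this row therefore changed side with treatment. The sources used here do not settle whether the EV labels of 1 treatment were exchanged. An exchange would change every paclitaxel effect within a label and every interaction, and would turn around the differences between the labels under that treatment. No library was regrouped, and every direction that uses an EV label below holds for libraries as labelled. Paclitaxel effects averaged over both labels, which weigh the 2 groups of a treatment equally whichever label they carry, are given as well.

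**Figure D1:**
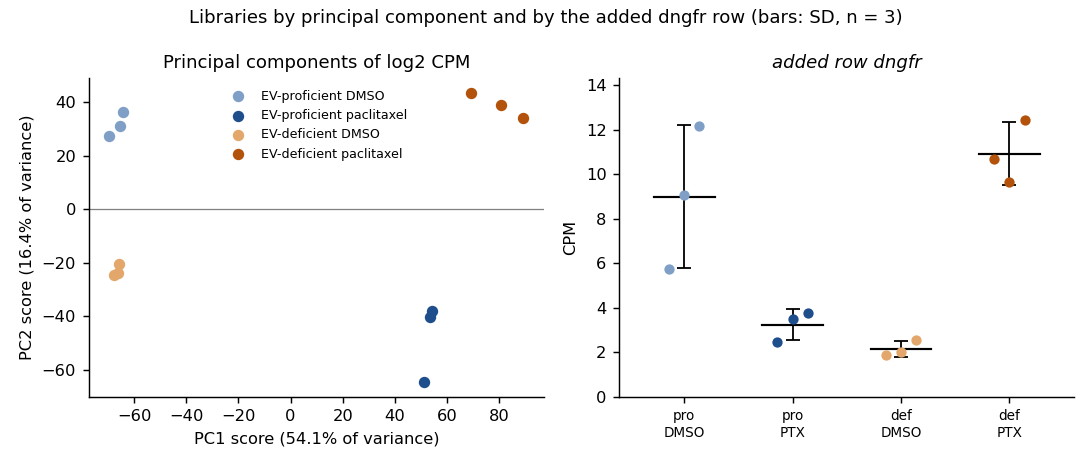
Left, first and second principal component scores of the 12 libraries from log2 CPM; right, CPM of the added dngfr row by group, with points for libraries, a line for the mean and bars for the SD (n = 3). EV-proficient DMSO and EV-deficient paclitaxel libraries lie together on the second component and are the higher ones in the dngfr row.

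Library totals ran from 23263472 to 62955757 counts, and 9 of the 10 ligand genes were deep enough to test. Epithelial markers were abundant (Krt8 at 843 to 2323 CPM), and of the basal and squamous markers Krt14 was at 77.3 to 730 CPM, Krt17 at 138 to 374, Sfn at 48.6 to 360 and Krt6a at 2.03 to 335 CPM. Krt5, the usual partner of Krt14, and Trp63 were near 0, with at most 8 and 11 counts in any library. The 11 epithelial markers summed to 5245 to 5714 CPM with DMSO and 3754 to 4118 CPM with paclitaxel in EV-proficient cells, and to 6017 to 6556 and 3216 to 3343 CPM, respectively, in EV-deficient cells. The 5 fibroblast markers summed to 1.34 to 2.52 and 5.26 to 6.01 CPM in EV-proficient and to 2.52 to 3.27 and 6.59 to 8.28 CPM in EV-deficient cells. For T and NK cells, 5 of 7 markers had at most 3 counts in every library, and the list summed to at most 0.151 CPM. The 8 myeloid markers together reached 17.0 to 19.1 CPM with DMSO and 75.7 to 82.0 CPM with paclitaxel in EV-proficient cells, and 31.4 to 31.6 and 56.7 to 85.4 CPM, respectively, in EV-deficient cells. Cd68, Cd14 and Csf1r carried that sum, while the macrophage markers Adgre1 and Lyz2 had at most 4 and 7 counts in a library. Mitochondrial genes took 0.550% to 0.729% of counts under DMSO, 0.846% to 0.907% in EV-proficient and 1.07% to 1.45% in EV-deficient paclitaxel libraries. With DMSO and paclitaxel, the 3 endothelial markers summed to 2.31 to 2.49 and 2.55 to 3.02 CPM in EV-proficient cells. In EV-deficient cells they summed to 1.69 to 2.32 and 3.28 to 4.26 CPM. The 3 B-cell markers summed to 0.120 to 0.439 and 0.553 to 1.23 CPM in EV-proficient cells. Their EV-deficient sums were 0.292 to 0.504 and 0.519 to 0.951 CPM. The epithelial, fibroblast, myeloid, endothelial and B-cell sums and the mitochondrial share moved with the paclitaxel results below. Their part in these results was not tested. The T and NK sums of paclitaxel and DMSO libraries overlapped under both labels.

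Ligand RNA spanned a wide range of abundance. Levels of different genes were compared as mean CPM per kilobase of exon. In EV-proficient DMSO cells Nectin2 (22.8), Pvr (21.7) and Cd276 (17.6) were the most abundant by this measure, followed by Cd47 (9.97), Raet1e (6.37) and Lgals9 (3.38). Cd274 (0.865), Ulbp1 (0.818) and Cd80 (0.0397) were scarcer. In EV-deficient paclitaxel cells Nectin2 still led at 33.4 CPM per kilobase, with Cd47 second at 21.9, and Lgals9 at 17.8 was level with Cd276 at 17.9. Pdcd1lg2 had 19 counts over the 12 libraries, none in 6 of them and at most 6 in any, and was not tested. Of the 9 tested genes, 6 had their highest group mean in EV-deficient paclitaxel libraries, 2 in EV-proficient paclitaxel and 1 in EV-deficient DMSO libraries. Among all tested genes 32.0% had their highest mean in the EV-deficient paclitaxel group.

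**Figure D2:**
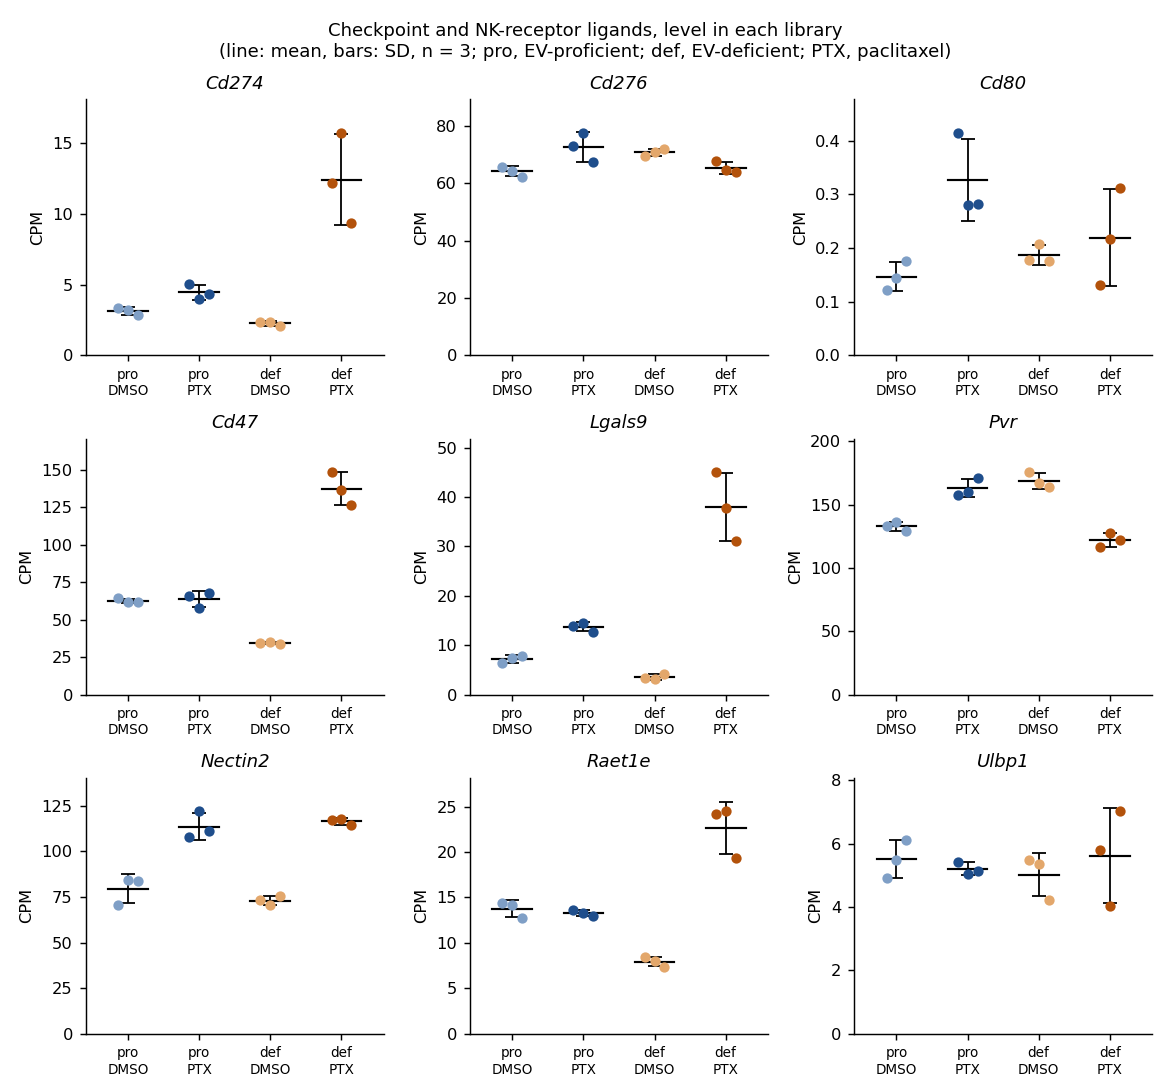
CPM of each tested ligand gene in each library (points) by group, with the group mean (line) and SD (bars, n = 3). Cd274, Cd47, Lgals9 and Raet1e are highest in all 3 EV-deficient paclitaxel libraries, where Pvr is lowest.

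RNA of several of these ligands rose with paclitaxel, and the paclitaxel effect on Cd274, Cd47, Lgals9 and Raet1e was larger in cells labelled EV-deficient. In EV-proficient cells Cd274 and Lgals9 rose less, and Cd47 (log2 0.022) and Raet1e (-0.053) were not called. A gene is called here when its Benjamini-Hochberg adjusted p over all 18108 tested genes was under 0.05 in edgeR's quasi-likelihood test. In EV-proficient cells 5 of the 9 tested ligands were called, all 5 higher (Cd274, Cd276, Lgals9, Pvr and Nectin2), against 58.2% of all tested genes called in either direction and 31.1% called higher. Paclitaxel and DMSO libraries did not overlap for 6 of the 9 (62.3% of all genes). In EV-deficient cells 6 were called, against 62.9% of all genes. Cd274, Cd47, Lgals9, Nectin2 and Raet1e were the 5 called higher (32.4% of all genes were), and Pvr was called lower (30.5% of all genes were). The number of ligands called therefore lay near the background in both, although in EV-proficient cells it ranged from 3 to 5 with 1 library left out. Groups did not overlap for 7 of the 9 in EV-deficient cells (68.7% of all genes). Changes of at least 2-fold were called there for 4 of the 9 (Cd274, Cd47, Lgals9 and Raet1e), against 25.2% of all genes. In EV-proficient cells, where 21.9% of all genes were called with such a change, the largest called fold among the ligands was 1.91, that of Lgals9. The median log2 fold change of the 9 ligands was 0.29 in EV-proficient and 0.67 in EV-deficient cells, beside 0.052 and 0.075 for all tested genes.

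**Figure D3:**
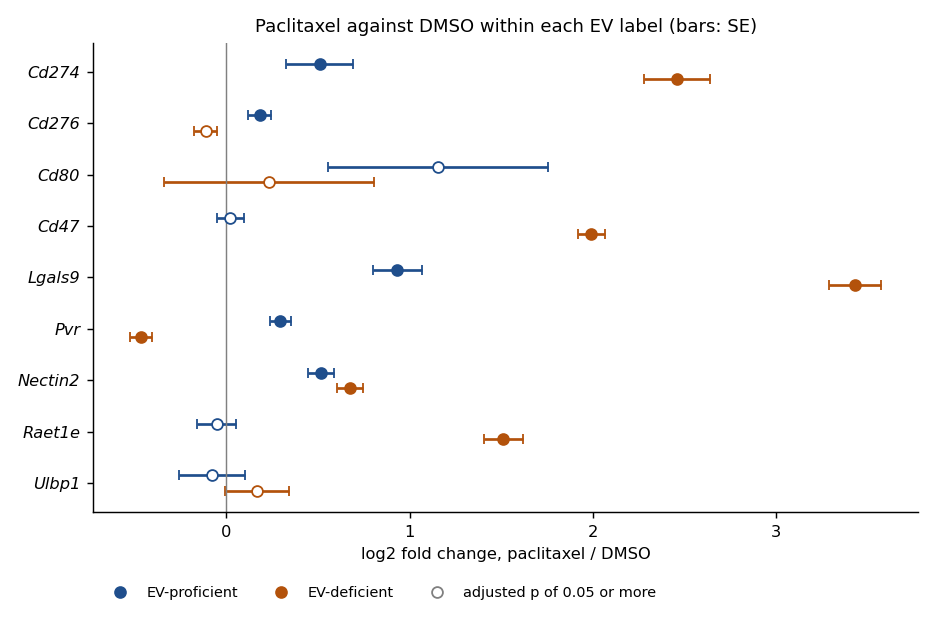
Log2 fold change of paclitaxel against DMSO for the 9 tested ligand genes, with SE as bars, in EV-proficient (blue) and EV-deficient (orange) cells; open symbols have an adjusted p of 0.05 or more. Cd274, Cd47, Lgals9 and Raet1e lie farther right in EV-deficient cells, and Pvr lies on opposite sides of 0.

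The interaction, which tests whether the paclitaxel effect differed between the EV labels, was called for 6 of the 9 ligands, against 40.7% of all tested genes. It was positive for Cd274, Cd47, Lgals9 and Raet1e (16.9% of all genes were called in that direction) and negative for Cd276 and Pvr (23.8%). The 4 positive ones were at least 2-fold (13.9% of all genes). Between the EV labels under DMSO, 4 ligands were called, against 23% of all genes: Cd47, Lgals9 and Raet1e were lower in EV-deficient cells (10.6% of all genes were called lower) and Pvr was higher (12.4%). The groups did not overlap for 6 (43.3% of all genes), and 1, Lgals9, was called with at least a 2-fold difference (5.02% of all genes). Under paclitaxel 5 were called, against 37.8% of all genes, with Cd274, Cd47, Lgals9 and Raet1e higher in EV-deficient cells (16.0%) and Pvr lower (21.8%). The groups did not overlap for these 5 (44.1% of all genes), and Cd274, Cd47 and Lgals9 were called with at least a 2-fold difference (8.68% of all genes). Each of Cd47, Lgals9, Raet1e and Pvr thus had opposite called directions between the labels under the 2 treatments. These comparisons share groups, so they are not independent of each other. With upper-quartile scaling, which moved the median log2 fold change of all genes by 0.18 for paclitaxel in EV-deficient cells and by 0.12 for the interaction, the share of all calls that were higher went from 51.5% to 63.4% and from 41.4% to 53.9%. Under paclitaxel that share went from 42.4% to 58.2% between the EV labels.

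The doubt about the labels bears on these interactions directly. Ratios of group means were therefore also taken across the labels, with EV-deficient paclitaxel set against EV-proficient DMSO and EV-proficient paclitaxel against EV-deficient DMSO, as arithmetic added after the data were seen and with no test. For Cd47 the paclitaxel to DMSO ratios were 1.02 and 3.98 within the EV-proficient and EV-deficient labels, but 2.20 and 1.84 across them. Raet1e went from 0.964 and 2.85 within the labels to 1.65 and 1.67 across them, and Lgals9 from 1.90 and 10.8 to 5.26 and 3.89. The ratios of Cd274 were 1.42 and 5.51 within the labels and 3.97 and 1.98 across them. Pvr went from 1.23 and 0.724 to 0.920 and 0.966, and Cd276 from 1.13 and 0.925 to 1.02 and 1.03. The 3 ligands with no called interaction had ratios of 1.43 and 1.60 (Nectin2), 0.945 and 1.12 (Ulbp1) and 2.22 and 1.17 (Cd80) within the labels, and of 1.46 and 1.55, 1.02 and 1.04, and 1.49 and 1.74 across them. The pair of ratios must lie closer together across the labels wherever the label difference has opposite signs under DMSO and paclitaxel, so these ratios show how far the values depend on the labels and do not bear on whether labels were exchanged.

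**Figure D4:**
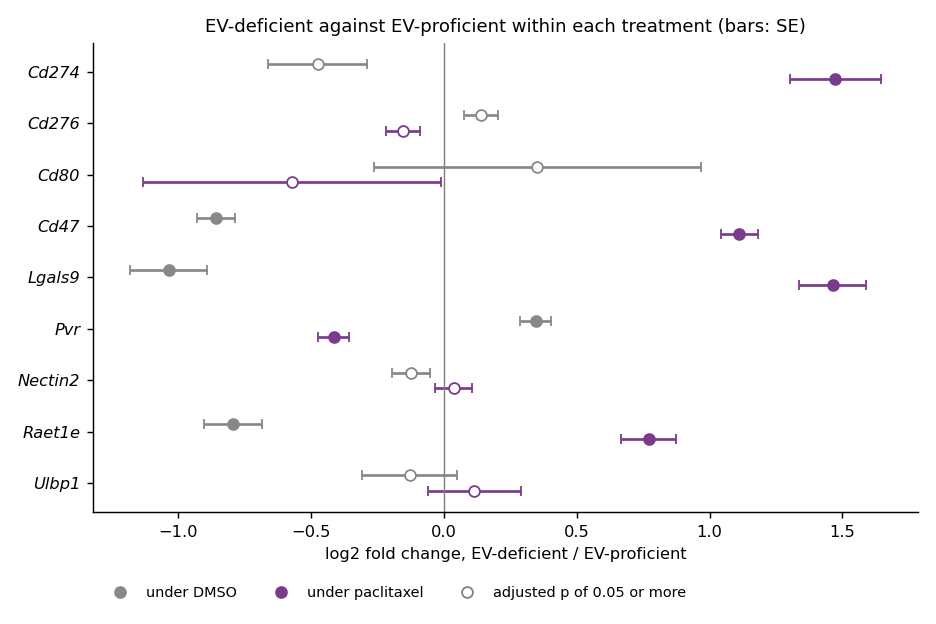
Log2 fold change of EV-deficient against EV-proficient libraries for the 9 tested ligand genes, with SE as bars, under DMSO (grey) and paclitaxel (purple); open symbols have an adjusted p of 0.05 or more. For Cd47, Lgals9, Pvr and Raet1e the filled symbols of the 2 treatments lie on opposite sides of 0.

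Averaged over both EV labels, a comparison added after the data were seen, 5 ligands were called, each of them higher under paclitaxel, against 68.4% of all tested genes called in either direction, 37.1% called higher and 31.3% lower. Lgals9 had the largest mean effect, a log2 fold change of 2.18 ± 0.096 (SE), followed by Cd274 at 1.48 ± 0.13, Cd47 at 1.01 ± 0.050, Raet1e at 0.73 ± 0.075 and Nectin2 at 0.59 ± 0.050. The first 3 were at least 2-fold changes, against 22.9% of all genes called with one. Pvr (-0.086 ± 0.041), Cd276 (0.034 ± 0.045), Ulbp1 (0.044 ± 0.13) and Cd80 (0.69 ± 0.42) were not called. For Pvr the opposite effects in the 2 labels cancelled in this average. DESeq2 called the Pvr average (-0.089), and so did leaving out each of the 6 paclitaxel libraries in turn (-0.099 without EV-deficient paclitaxel replicate 1 to -0.13 without EV-proficient paclitaxel replicate 3).

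Cd274 (ENSMUSG00000016496) lies at chr19:29367455-29388095 on the plus strand of GRCm38 (positions from the GENCODE M21 annotation) and Pdcd1lg2 (ENSMUSG00000016498) 22.8 kb further along at chr19:29410919-29471161. In EV-deficient cells Cd274 stood at 2.37, 2.35 and 2.04 CPM under DMSO and at 12.2, 15.7 and 9.36 CPM under paclitaxel. It was at 3.34, 3.23 and 2.84 CPM in EV-proficient DMSO libraries and at 5.06, 4.01 and 4.33 CPM in EV-proficient paclitaxel libraries. Its 4 groups did not overlap in any neighbouring pair, and EV-deficient cells held both the lowest and the highest levels. Under paclitaxel Cd274 rose 5.49-fold in EV-deficient cells (2.46 ± 0.18 in log2, with SE; adjusted p 1.19e-10 by edgeR's quasi-likelihood test) and 1.42-fold in EV-proficient cells (0.51 ± 0.18, adjusted p 0.0206). The interaction was 1.95 ± 0.25 (adjusted p 2.41e-06). The smaller rise was not called without EV-proficient DMSO replicate 3 (0.44), without EV-proficient paclitaxel replicate 1 (0.36) or by limma-voom (0.50). Between the labels, Cd274 was higher in EV-deficient cells under paclitaxel (1.47 ± 0.17, adjusted p 8.93e-07). Under DMSO its log2 difference of -0.48 ± 0.19 was not called (adjusted p 0.0738), but it was called without EV-deficient paclitaxel replicate 2 (-0.51), without EV-deficient paclitaxel replicate 3 (-0.52), by DESeq2 (-0.50) and with the DMSO groups alone (-0.51). Its exons share 14.1% of their length with the antisense gene AC119228.1, and whether the counting used strand is not given in the sources used here.

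Pdcd1lg2, the second PD-1 ligand, stayed near the limit of detection beside its neighbour. It was at 0 in all 3 EV-proficient DMSO libraries and in 2 EV-deficient DMSO libraries, with 0.0438 CPM in the remaining one. Under paclitaxel it read 0.0988, 0.0703 and 0 CPM in EV-proficient and 0.112, 0.0216 and 0.0164 CPM in EV-deficient libraries. A count of 3 corresponds to between 0.0492 and 0.121 CPM in these libraries. No DMSO library had more than 2 counts, while paclitaxel libraries had 0 to 6. With so few counts the gene was not tested, and a difference between groups was neither shown nor excluded. This limit of 3 counts is a set floor, whereas the 95% intervals given for other ligands rest on the spread between libraries. PCR copies of a molecule cannot be recognised in these reads, so counts may exceed the number of molecules.

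Cd276 (ENSMUSG00000035914, chr9:58524298-58555437, minus strand) changed least among the abundant ligands, with a ratio of 1.13 between its highest and lowest group means. It was at 65.9, 64.5 and 62.3 CPM with DMSO and 73.2, 77.6 and 67.4 CPM with paclitaxel in EV-proficient cells. In EV-deficient cells it was at 69.5, 70.9 and 72.0 CPM with DMSO and 67.9, 64.5 and 64.0 CPM with paclitaxel. Paclitaxel libraries lay above DMSO in EV-proficient cells and below it in EV-deficient cells, without overlap in either. The EV-proficient rise was 0.18 ± 0.064 in log2 (edgeR quasi-likelihood adjusted p 0.0194), the EV-deficient value of -0.11 ± 0.063 was not called (adjusted p 0.129), and the interaction was -0.29 ± 0.090 (adjusted p 0.0122). The rise was lost in 6 fits that left out 1 library: EV-proficient DMSO replicate 3 (0.16), EV-proficient paclitaxel replicate 1 (0.13) or 2 (0.076), and each EV-deficient paclitaxel replicate (0.14 each). The interaction was lost without EV-proficient paclitaxel replicate 1 (-0.25) or 2 (-0.20), without EV-deficient paclitaxel replicate 2 (-0.24) or 3 (-0.24), and with upper-quartile scaling (-0.17). Between the labels under paclitaxel Cd276 was not called (-0.15 ± 0.064, adjusted p 0.0624), although it was by limma-voom (-0.16) and without EV-proficient paclitaxel replicate 3 (-0.21).

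Cd80 (ENSMUSG00000075122), the CD28 and CTLA-4 ligand at chr16:38455561-38496335, was rare, with 5 to 21 counts in a library. It was at 0.122, 0.144 and 0.176 CPM in EV-proficient DMSO libraries and at 0.415, 0.281 and 0.283 CPM in EV-proficient paclitaxel libraries. EV-deficient libraries read 0.178, 0.208 and 0.175 CPM under DMSO and 0.130, 0.216 and 0.312 CPM under paclitaxel. The EV-proficient groups did not overlap, but the log2 fold change of 1.16 ± 0.60 was not called (edgeR quasi-likelihood adjusted p 0.106, 95% interval -0.094 to 2.41). In EV-deficient cells the groups overlapped, and the interval of the log2 fold change ran from -0.96 to 1.43.

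Cd47 (ENSMUSG00000055447, chr16:49800533-49915010, plus strand), the macrophage-restraining signal, rose with paclitaxel in EV-deficient cells and was not called in EV-proficient cells. EV-deficient libraries were at 34.7, 35.2 and 33.8 CPM under DMSO and at 149, 137 and 127 CPM under paclitaxel, a 3.98-fold rise (log2 1.99 ± 0.073, edgeR quasi-likelihood adjusted p 4.97e-15). EV-proficient libraries were at 64.3, 61.6 and 61.9 CPM under DMSO and at 65.7, 57.8 and 67.5 CPM under paclitaxel. These 2 groups overlapped, and their log2 difference was 0.022 ± 0.071 (adjusted p 0.812), with a 95% interval from -0.13 to 0.17. The interaction was 1.97 ± 0.10 (adjusted p 1.43e-12). EV-deficient cells thus started at 0.552 of the EV-proficient level under DMSO (log2 -0.86 ± 0.072, adjusted p 9.91e-09) and stood 2.16-fold above it under paclitaxel (1.11 ± 0.071, adjusted p 1.39e-10). In bulk RNA a different number of cells carrying a transcript and a different amount of it per cell cannot be told apart.

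Lgals9 had the largest change of the 9 tested ligands. Its gene, ENSMUSG00000001123 at chr11:78962974-78984946 on the minus strand, encodes the TIM-3 ligand galectin-9. EV-deficient DMSO libraries were at 3.34, 3.11 and 4.14 CPM and EV-deficient paclitaxel libraries at 45.0, 37.8 and 31.1 CPM. EV-proficient libraries were at 6.38, 7.46 and 7.84 CPM under DMSO and at 13.9, 14.5 and 12.7 CPM under paclitaxel. As with Cd274, the 4 groups were fully separated and EV-deficient cells held both extremes. The rise under paclitaxel was 10.8-fold in EV-deficient cells (log2 3.43 ± 0.14, edgeR quasi-likelihood adjusted p 2.58e-14) and 1.91-fold in EV-proficient cells (0.93 ± 0.13, adjusted p 3.68e-06), and the interaction was 2.5 ± 0.19 (adjusted p 9.94e-10). Between the labels it was lower in EV-deficient cells under DMSO (-1.04 ± 0.14, adjusted p 1.32e-05) and higher under paclitaxel (1.46 ± 0.13, adjusted p 1.39e-08).

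The promoters of Cd274 and Lgals9 are shown because these are the ligands with the largest rises and the 2 whose windows hold the letters GAAANNGAA, which occur in interferon response elements (N is any base). The windows run from 250 bases before to 50 bases after a gene's start, are credited to RefSeq (GRCm38.p6), and read 5′ to 3′ along the gene, with matches in capitals. All 3 matches read GAAANNGAA on the strand opposite to the gene, so the capitals show their complement. The Cd274 window is chr19:29367188-29367487 and the Lgals9 window is chr11:78984875-78985174 on the minus strand.
Cd274: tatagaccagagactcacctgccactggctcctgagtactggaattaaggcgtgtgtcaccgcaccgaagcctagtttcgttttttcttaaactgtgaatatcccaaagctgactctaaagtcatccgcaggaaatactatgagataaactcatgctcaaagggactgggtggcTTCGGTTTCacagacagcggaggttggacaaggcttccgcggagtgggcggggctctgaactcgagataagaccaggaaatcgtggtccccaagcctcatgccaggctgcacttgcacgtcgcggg
Lgals9: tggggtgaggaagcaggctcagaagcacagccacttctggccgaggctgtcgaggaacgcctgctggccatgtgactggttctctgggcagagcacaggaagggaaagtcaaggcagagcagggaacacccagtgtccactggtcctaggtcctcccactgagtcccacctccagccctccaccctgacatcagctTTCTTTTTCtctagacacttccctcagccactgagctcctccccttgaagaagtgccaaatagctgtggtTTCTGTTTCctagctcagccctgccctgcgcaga
The match in Cd274 began 76 bases before the start, and those in Lgals9 54 bases before and 17 bases after it. These distances use the RefSeq starts that set the windows, which differ from the GENCODE gene starts given above. RefSeq windows were found for 9 of the 10 ligands, 11 windows in all, and Pvr had none in the table used. GAAANNGAA, searched on both strands, was in 2 of these 11 windows and in 8.56% of the 32851 windows in the table. TTCNNNGAA, letters of a STAT site that read the same on both strands, was in 0 of the 11 windows and in 8.3% of all windows, and 1.07% of all windows held both. The letters were chosen after the Cd274 window had been seen, and a match describes the sequence without showing binding.

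Most listed genes of the interferon route were higher with paclitaxel under both labels. Of 17 listed interferon receptors, JAK, STAT, IRF and SOCS genes and stabilisers of PD-L1 protein, 12 were higher and 1 lower in EV-proficient cells (edgeR quasi-likelihood, adjusted p under 0.05), and 13 were higher and 1 lower in EV-deficient cells. Of all tested genes 31.1% were called higher and 27.1% lower in the former, and 32.4% and 30.5% in the latter. The list's median log2 fold changes were 0.47 and 0.92, beside 0.052 and 0.075 for all tested genes. Stat2, a transducer of interferon signals, rose by 0.89 ± 0.12 in EV-proficient and 2.64 ± 0.13 in EV-deficient cells on the log2 scale, and Irf9, which joins it in a complex, by 1.34 ± 0.12 and 2.23 ± 0.12. Irf1, an interferon-induced transcription factor of the PD-L1 gene, rose by 0.60 ± 0.095 and 1.13 ± 0.094. Interactions were called for 12 of the 17, with 10 positive and 2 negative and a median of 0.53 (16.9% and 23.8% of all genes, median -0.039). Between the labels, 8 were called under DMSO, each lower in EV-deficient cells (median -0.23; 10.6% of all genes were lower), and under paclitaxel 8 were higher and 3 lower (median 0.20; 16.0% and 21.8% of all genes). Upper-quartile scaling gave 13 higher and 0 lower in EV-proficient and 15 higher and 0 lower in EV-deficient cells under paclitaxel, 12 positive and 0 negative interactions, and 10 higher and 1 lower between the labels under paclitaxel. The negative interactions of Cmtm4 and Socs3 were among the calls lost.

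Cmtm6, which keeps PD-L1 protein at the cell surface, was not called where Cd274 rose. Its mean stood at 74.8 ± 2.9 CPM with DMSO and 74.0 ± 2.6 CPM with paclitaxel in EV-proficient cells, and at 62.9 ± 2.2 and 68.0 ± 6.1 CPM, respectively, in EV-deficient cells (SD, n = 3 each). Neither paclitaxel effect was called (log2 -0.014 ± 0.068 and 0.11 ± 0.068), although upper-quartile scaling called the latter (0.30). Jak2, named here for its place 54.4 kb from Cd274 and not by the naming rule, rose by 0.78 in EV-proficient and 1.81 in EV-deficient cells on the log2 scale.

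Pvr and Nectin2, ligands of the same receptors and 153 kb apart on chromosome 7, both rose with paclitaxel in EV-proficient cells and moved in opposite directions in EV-deficient cells. Pvr (ENSMUSG00000040511, chr7:19903578-19921160, minus strand) was at 133, 136 and 129 CPM in EV-proficient DMSO and 158, 160 and 171 CPM in EV-proficient paclitaxel libraries. In EV-deficient libraries it was at 176, 167 and 164 CPM under DMSO and 117, 128 and 122 CPM under paclitaxel. The drug groups did not overlap their controls under either label, but lay above them in EV-proficient and below them in EV-deficient cells. Pvr rose by 0.29 ± 0.059 in log2 in EV-proficient cells (edgeR quasi-likelihood adjusted p 0.000191) and fell by 0.47 ± 0.059 in EV-deficient cells (adjusted p 4.57e-07), with an interaction of -0.76 ± 0.083 (adjusted p 2.18e-07). EV-deficient cells had more Pvr RNA under DMSO (0.35 ± 0.059, adjusted p 0.000136) and less under paclitaxel (-0.41 ± 0.059, adjusted p 1.05e-05). The ratio of its highest to its lowest group mean was 1.38.

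Nectin2 (ENSMUSG00000062300, chr7:19716644-19750483, minus strand) rose with paclitaxel under both labels. It was at 70.6, 84.4 and 83.8 CPM with DMSO and 108, 122 and 111 CPM with paclitaxel in EV-proficient cells. In EV-deficient cells it was at 73.1, 70.5 and 75.5 CPM with DMSO and 117, 118 and 114 CPM with paclitaxel. All 6 drug libraries lay above all 6 control libraries. The rise was 1.43-fold in EV-proficient cells (log2 0.51 ± 0.071, edgeR quasi-likelihood adjusted p 2.22e-06) and 1.60-fold in EV-deficient cells (0.67 ± 0.071, adjusted p 3.12e-08). The interaction of 0.16 ± 0.10 was not called (adjusted p 0.217, 95% interval -0.046 to 0.37), but was called with upper-quartile scaling (0.28) and without EV-proficient paclitaxel replicate 2 (0.26). Between the labels its log2 differences were -0.12 ± 0.071 under DMSO and 0.037 ± 0.070 under paclitaxel, neither called, with intervals from -0.27 to 0.023 and from -0.11 to 0.18. Exon overlap with an opposite-strand gene was 3.86% for Nectin2 and 11.4% for Cd276.

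The 2 NKG2D ligands differed from each other. Raet1e (RAE-1ε, ENSMUSG00000053219, chr10:22158569-22374139, plus strand) was at 8.42, 8.0 and 7.39 CPM in EV-deficient DMSO libraries and at 24.2, 24.5 and 19.3 CPM in EV-deficient paclitaxel libraries. It was at 14.4, 14.2 and 12.7 CPM in EV-proficient DMSO and at 13.6, 13.2 and 12.9 CPM in EV-proficient paclitaxel libraries. The EV-proficient groups overlapped, and lay between the 2 EV-deficient groups. Raet1e rose 2.85-fold in EV-deficient cells (log2 1.51 ± 0.11, edgeR quasi-likelihood adjusted p 7.44e-11) and was not called in EV-proficient cells (-0.053 ± 0.11, adjusted p 0.696, 95% interval -0.27 to 0.17). Its interaction was 1.56 ± 0.15 (adjusted p 3.65e-08), and between the labels it was lower in EV-deficient cells under DMSO (-0.79 ± 0.11, adjusted p 1.04e-05) and higher under paclitaxel (0.77 ± 0.10, adjusted p 6.46e-06). Raet1e shares 16.8% of its exon length with Raet1d and 6.16% with H60b on the same strand, so reads could be split between these related genes and its counts are uncertain. Raet1d and H60b themselves stayed at or below 1.34 CPM in every library.

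Ulbp1 (MULT1, ENSMUSG00000079685, chr10:7440362-7473638, minus strand) kept overlapping levels in all 4 groups. It was at 4.92, 5.48 and 6.11 CPM with DMSO and 5.43, 5.04 and 5.14 CPM with paclitaxel in EV-proficient cells. In EV-deficient cells it was at 5.48, 5.36 and 4.23 CPM with DMSO and 5.79, 4.04 and 7.02 CPM with paclitaxel. The paclitaxel effects were -0.078 ± 0.18 in EV-proficient and 0.17 ± 0.17 in EV-deficient cells on the log2 scale, with 95% intervals from -0.45 to 0.29 and from -0.20 to 0.53. Its interaction of 0.24 ± 0.25 was not called (edgeR quasi-likelihood adjusted p 0.480, interval -0.28 to 0.76). A change as large as that of Raet1e in EV-deficient cells lies outside both paclitaxel intervals.

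Other listed checkpoint and phagocytosis genes moved in both directions. Of 19 listed genes 14 could be tested: 8 were higher and 4 lower under paclitaxel in EV-proficient cells (median log2 fold change 0.85), and 6 were higher and 5 lower in EV-deficient cells (median 0.31). The 4 lower in EV-proficient cells were Lgals3, Qpctl, Calr and Hmgb1, named here outside the naming rule. Not all of these are checkpoint ligands. Between the labels 3 of the 14 were higher and 1 lower under DMSO and 4 were higher and 4 lower under paclitaxel, and the interaction was called for 4 in each direction. In the order of these 5 comparisons, the called members were 12, 11, 4, 8 and 8 of 14, against 58.2%, 62.9%, 23%, 37.8% and 40.7% of all tested genes. Vsir, which encodes the checkpoint protein VISTA, had 0 counts in all 3 EV-proficient DMSO libraries and 2.29 ± 0.44 CPM under paclitaxel (SD, n = 3), at least 29.5-fold higher when 3 counts per library are taken as the floor. In EV-deficient cells it had 1 to 3 counts in a DMSO library and 2.97 ± 1.4 CPM under paclitaxel, and it was called higher under both labels. Tnfrsf14, the partner of BTLA, was likewise at 0 counts in EV-proficient DMSO libraries and at 0.255 ± 0.19 CPM under paclitaxel, at least 3.28-fold higher by the mean. These paclitaxel libraries read 0.454, 0.228 and 0.0809 CPM, and the lowest count among them, 2, was below the floor itself. In EV-deficient cells Tnfrsf14 had at most 2 counts in a DMSO library and 0.292 ± 0.13 CPM under paclitaxel. It was called higher under both labels. Btn2a2, a B7-like butyrophilin, was at 0.213 ± 0.075, 2.58 ± 0.66, 0.994 ± 0.071 and 1.21 ± 0.56 CPM in EV-proficient DMSO, EV-proficient paclitaxel, EV-deficient DMSO and EV-deficient paclitaxel libraries. Its rise was called in EV-proficient cells (3.59 ± 0.39) and not in EV-deficient cells (0.27 ± 0.32), with an interaction of -3.32 ± 0.51 (edgeR quasi-likelihood adjusted p 1.97e-05), opposite in sign to that of Cd274. Cd86, which shares its receptors with Cd80, had at most 5 counts in a library and was not tested.

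A further list of 19 genes covered ligands and adhesion partners of NK receptors. It also held the death receptor genes Fas and Tnfrsf10b, named here outside the naming rule and included in the counts and medians. Of these 19, 15 were in the table and 14 were tested. In EV-proficient cells 6 were higher and 4 lower under paclitaxel, and in EV-deficient cells 9 were higher and 2 lower, with medians of 0.52 and 1.36, against medians of 0.052 and 0.075 and called shares of 58.2% and 62.9% for all tested genes. Upper-quartile scaling made the latter count 11 higher and 1 lower. The interaction was called for 10, of which 8 were positive, and its median was 0.59 (40.7% of all genes were called, 16.9% positive). Between the labels, 3 were higher and 4 lower in EV-deficient cells under DMSO (median -0.20), and 7 were higher and 2 lower under paclitaxel (median 0.44), where 23% and 37.8% of all genes were called. H2-T23, the Qa-1 molecule seen by inhibitory NKG2A, rose under both labels to about the same level: it went from 4.63 ± 0.36 to 38.7 ± 3.4 CPM in EV-proficient and from 5.31 ± 0.098 to 41.8 ± 10.1 CPM in EV-deficient cells (SD, n = 3 each). Its interaction was -0.092 ± 0.20 and was not called (edgeR quasi-likelihood adjusted p 0.752). Clec2d, a ligand of NKR-P1 receptors, had 0 to 5 counts in EV-deficient DMSO libraries and 63 to 123 under paclitaxel, a called rise, while its EV-proficient value (log2 0.52 ± 0.50) was not called.

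Nectin3, Nectin4 and Cdh2, a KLRG1 partner, reversed direction between the labels. Nectin4, a TIGIT ligand, was at 0.755 ± 0.17 CPM with DMSO and 16.3 ± 2.5 CPM with paclitaxel in EV-proficient cells, and at 7.49 ± 0.53 and 1.24 ± 0.55 CPM, respectively, in EV-deficient cells. Nectin3 ran the opposite way, at 17.5 ± 0.43, 6.02 ± 0.82, 7.38 ± 0.54 and 14.9 ± 1.8 CPM in the same groups in that order. Both had called effects of opposite sign under the 2 labels: 4.44 ± 0.25 and -2.57 ± 0.23 in log2 for Nectin4, and -1.55 ± 0.12 and 1.01 ± 0.12 for Nectin3. Cdh2 fell by 3.22 ± 0.11 in EV-proficient cells and rose by 2.06 ± 0.10 in EV-deficient cells. Nectin1 was scarce, at 0.222 to 0.644 CPM by group mean, and was called higher under paclitaxel in EV-proficient cells (1.49 ± 0.51) and not called in EV-deficient cells (-0.17 ± 0.45), with an interaction that was not called (-1.66 ± 0.68). Under DMSO it was called higher in EV-deficient than in EV-proficient cells (1.55 ± 0.50).

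Several receptors for these ligands are best known from immune cells, and transcripts of 2 of them were abundant in this carcinoma RNA. Tigit, the inhibitory receptor for Pvr and Nectin2, was at 146, 137 and 123 CPM with DMSO and 168, 191 and 162 CPM with paclitaxel in EV-proficient cells. In EV-deficient cells it was at 157, 164 and 147 CPM with DMSO and 111, 127 and 95.6 CPM with paclitaxel. Like Pvr, Tigit rose in EV-proficient cells (log2 0.36 ± 0.089, edgeR quasi-likelihood adjusted p 0.00154) and fell by 0.48 ± 0.089 in EV-deficient cells (adjusted p 6.43e-05). Havcr2, which encodes the galectin-9 receptor TIM-3, was at 86.4 ± 11.0, 35.8 ± 1.5, 37.7 ± 1.7 and 81.3 ± 4.8 CPM in EV-proficient DMSO, EV-proficient paclitaxel, EV-deficient DMSO and EV-deficient paclitaxel libraries (SD, n = 3 each). It fell by 1.27 ± 0.082 in EV-proficient and rose by 1.11 ± 0.081 in EV-deficient cells. In the same libraries the T-cell marker Cd3e had at most 2 counts and the NK marker Ncr1 had 0 in every library. Myeloid cells can also carry TIM-3, and of their 8 markers Cd68 reached 39.2, Cd14 38.2 and Csf1r 12.8 CPM. The myeloid sum was higher with paclitaxel under both labels, whereas Havcr2 was lower with paclitaxel in EV-proficient cells. The part of such cells in the receptor levels was not tested.

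**Figure D5:**
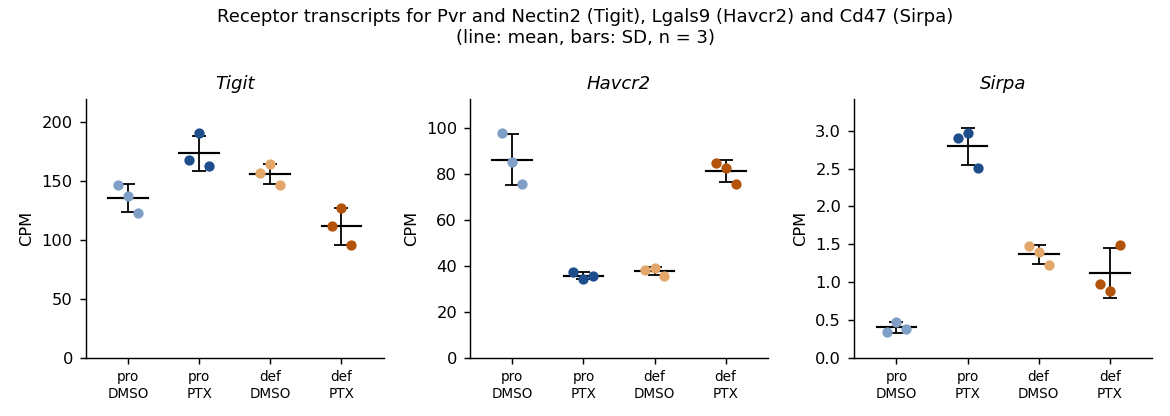
CPM of Tigit, Havcr2 and Sirpa in each library (points) by group, with the group mean (line) and SD (bars, n = 3). Tigit is at 95.6 to 191 CPM and Havcr2 at 34.2 to 98.0 CPM, while Sirpa stays below 3 CPM.

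Most of the remaining receptors were scarce. Sirpa, the receptor of Cd47, was at 0.400 ± 0.071, 2.79 ± 0.25, 1.37 ± 0.13 and 1.12 ± 0.33 CPM in EV-proficient DMSO, EV-proficient paclitaxel, EV-deficient DMSO and EV-deficient paclitaxel libraries. It rose in EV-proficient cells (log2 2.80 ± 0.29, edgeR quasi-likelihood adjusted p 4.61e-08) where Cd47 was not called, and was not called in EV-deficient cells (-0.29 ± 0.26) where Cd47 rose. The receptor genes Pdcd1, Ctla4, Cd226, Cd96 and Klrk1 had at most 7 counts in any library and were not tested. Of the 5 receptors tested, 3 were higher and 1 lower under paclitaxel in EV-proficient cells and 1 was higher and 1 lower in EV-deficient cells, beside 58.2% and 62.9% of all genes called.

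For each tested ligand, the 2 genes nearest in pattern were found among 9866 genes as the smallest root mean square difference between centred log2 group means over the 4 groups. The points share libraries, and 4 of them define each pattern. Pvr lay nearest to Jun (0.0076), which encodes a transcription factor subunit, and Dnajb5 (0.013). Cd276 lay nearest to the ribosomal gene Rps24 (0.0084) and Fam204a (0.013), Ulbp1 to Setd6 (0.010) and Tmem5 (0.012), and Nectin2 to Hook3 (0.011) and the thrombin receptor gene F2r (0.020). Raet1e lay nearest to Ankrd29 (0.020) and Pqlc3 (0.037), Cd80 to Ccdc77 (0.030) and Tgif1 (0.033), and Cd47 to Ampd3 (0.071) and Serpine2 (0.093). The log2 values used a prior count of 2. This draws the group means of Cd80 together, as it had only 5 to 21 counts in a library. Matches were loosest for the 2 ligands with the steepest rises. Cd274 lay 0.13 from Cfap69 and 0.16 from Stra6, and Lgals9 0.17 from Tmem176a and 0.18 from Ube2l6, an enzyme gene of ISG15 conjugation.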

How the data were processed

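Whole read counts per gene, not normalized, were deposited by the authors for the 12 libraries, which were made with a stranded poly(A) kit, per the labels' protocols. Reads were aligned with STAR 2.5.0a to GRCm38, per the submitters' processing notes; the counting program, annotation release and strand setting are not given in the sources used here. The 2 rows the authors added (gfp, at 0 in every library, and dngfr) were kept out of library sizes and tests, and unnamed genes held up to 0.102% of the counts in a library.

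The counts were tested with edgeR 4.0.16 in R 4.3.3. The filterByExpr function (minimum count 10) retained 18108 of the 35104 genes that had any count. All 12 libraries, scaled by TMM (factors 0.890 to 1.15), entered a single quasi-likelihood model of the 4 group means. The 5 planned comparisons were paclitaxel within each EV label, EV status within each treatment, and the interaction; the average paclitaxel effect is a later addition, made with the data in view. Adjustment over all tested genes used the Benjamini-Hochberg method (threshold 0.05). CPM used TMM-scaled library sizes, and principal components log2 CPM with a prior count of 2. The fit was first tested on simulated counts.

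The 10 genes, the gene lists and the naming rule were chosen with earlier results of these data known. Named were all 10, the 2 nearest genes of each tested one (mean of at least 5 CPM), at most 3 genes per list with the largest called paclitaxel effect, and Cd86, Nectin1, Nectin3, Nectin4, Cmtm6, Irf1, H2-T23 and Sirpa; 1 further named gene is not reported here. GENCODE M21 (GRCm38) gave positions, exon lengths and overlaps. The settings varied were the scaling (median-of-ratios, upper-quartile), the filter (none, or at least 1 CPM in 3 libraries), the tool (DESeq2 1.42.0, limma 3.58.1 with voom weights), the replicate number as a block, the compared groups alone, and each library left out in turn. Replicate pairs differed by more than sampling noise (chi-square per degree of freedom 4.20 to 27.8 over 12 pairs).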

Additional observations from a re-analysis of the deposited data

Results flagged for a closer look

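The paclitaxel effect differed between the EV labels for 6 ligands by the interaction test of edgeR (quasi-likelihood, adjusted p under 0.05), beside 40.7% of all tested genes. In log2, as the EV-deficient minus the EV-proficient effect, the values were 2.5 for Lgals9, 1.97 for Cd47, 1.95 for Cd274, 1.56 for Raet1e, -0.29 for Cd276 and -0.76 for Pvr. The dngfr row, which entered no comparison, had at least 93 counts in each of the 12 libraries, while the gfp row had 0 in each.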

How the results depend on the processing

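Of the member values under other settings, 1003 kept their direction and their side of the threshold, 14 lost a call, 16 gained one and 21 changed sign. The number of ligands called for paclitaxel in EV-proficient cells, 5, ranged from 3 to 5 when each library was left out in turn, with 3 without EV-proficient DMSO replicate 3 and 3 without EV-proficient paclitaxel replicate 1, since Cd274 and Cd276 were then not called. It ranged from 4 to 5 under the other settings. The counts for the other comparisons stayed within 1.5 times: 6 in every fit for paclitaxel in EV-deficient cells, 4 to 5 and 5 to 6 between the labels under DMSO and paclitaxel, 5 to 6 for the interaction and 5 to 6 for the average. The calls for Cd47, Lgals9, Pvr, Nectin2 and Raet1e in the 5 planned comparisons were kept in every alternative run, and so were those of Cd274 other than the one in EV-proficient cells.

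Every value that changed sign was small and, with the main settings, not called. With median-of-ratios scaling Cd47 in EV-proficient cells under paclitaxel became -0.0028, and with DESeq2 -0.0031. With upper-quartile scaling Raet1e became 0.0083 in EV-proficient and Cd276 0.071 in EV-deficient cells, and the average of Pvr became 0.037; it also called the average of Cd276 (0.16). Upper-quartile scaling also shifted the median log2 fold change of all genes. Less that median shift, the Pvr average was -0.084. With each library left out in turn, paclitaxel effects ranged from -0.060 to 0.041 for Cd47 and from -0.16 to 0.00027 for Ulbp1 in EV-proficient cells, and from -0.13 to 0.49 for Cd80 and from -0.032 to 0.35 for Ulbp1 in EV-deficient cells. Differences between the labels under paclitaxel ranged from -0.0036 to 0.099 for Nectin2 and from -0.077 to 0.31 for Ulbp1. Averages ranged from -0.023 to 0.036 for Cd276 and from -0.079 to 0.11 for Ulbp1. The cause of these changes was not tested.

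The replicate number as a block changed no call, with 5 and 6 ligands called for paclitaxel in EV-proficient and EV-deficient cells, 4 and 5 between the labels under DMSO and paclitaxel, 6 for the interaction and 5 for the average. Libraries share only a number: correlations of their deviations from group means ran from -0.081 to 0.097 over 18 same-numbered pairs, and 4 of 12 libraries correlated best with their own number. Neighbouring group levels were apart in 14 of 30 pairs, and in 14 to 19 under other scalings. Depth limits Pdcd1lg2 and Cd80, which had no value under the filter of 1 CPM.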
